A study of Mus musculus with 4 samples.

Results

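Hyaluronan is a long, unsulfated sugar chain of the extracellular matrix, and its gene set was followed here in mouse pre-osteoblasts given the selective serotonin reuptake inhibitor citalopram. The set holds 8 genes: the synthases Has1, Has2 and Has3, the degradation genes Cemip, Hyal1 and Hyal2, and the hyaluronan binders Cd44 and Vcan. The members were chosen by gene symbol in the platform annotation, and where a gene had several features the one selected on the highest average level across the arrays was read. In all, 19938 genes were named by a feature with 1 symbol. The set was put together with results of these data known, so its values are a description of these arrays.

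The cells were MC3T3-E1, a calvarial pre-osteoblast line derived from C57BL/6 mice. The groups were cells with 100 µM citalopram in proliferation medium at day 7, untreated cells at day 7, citalopram-treated cells at day 3 and untreated cells at day 3, with 1 array in each. All groups shared the line, the medium with 1% fetal bovine serum and 6-well plates with 3 treated and 3 untreated wells. The labels name no mineralising medium and do not say if wells were combined before hybridisation. The deposited values are expression values on a log scale taken to be log2, and a difference of 0.58 on that scale is 1.5-fold. A floor was set on each array at the 40th percentile over genes, which gave 5.95 to 6.01, and a gene was taken as measurable in a comparison when its higher value was at or above the floor of that array. Levels of different genes come from different probes and are not set against each other.

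Hyaluronan is made at the cell membrane by the HAS enzymes from UDP-glucuronate and UDP-N-acetylglucosamine and is pushed out of the cell as it grows. It is cut by hyaluronidases such as HYAL1 in lysosomes and HYAL2 at the cell surface, and by the CEMIP protein, which acts on hyaluronan outside lysosomes. CD44 is its main cell-surface receptor, and versican, the product of Vcan, is a large chondroitin sulfate proteoglycan that binds it in the matrix. In bone, osteoblast-lineage cells make hyaluronan, and CD44 is also a receptor of osteopontin.

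The stretches just upstream of the annotated starts of Cemip, Cd44 and Vcan are shown because these 3 members were each higher by over 0.25 on the log2 scale with citalopram at day 3 and higher at day 7 than at day 3 in control. Both differences use the control array at day 3, so they are not separate observations. Each is 250 bases long, read 5′ to 3′ in the direction of the gene from RefSeq, build GRCm38.p6, and all 3 genes lie on the minus strand, Cemip at chr7:84086506-84086755, Cd44 at chr2:102901666-102901915 and Vcan at chr13:89742513-89742762. Capitals mark matches on either strand to the TATA box TATAAA, to the CCAAT box, to the GC box GGGCGG and to the AP-1 site TGANTCA.
Cemip: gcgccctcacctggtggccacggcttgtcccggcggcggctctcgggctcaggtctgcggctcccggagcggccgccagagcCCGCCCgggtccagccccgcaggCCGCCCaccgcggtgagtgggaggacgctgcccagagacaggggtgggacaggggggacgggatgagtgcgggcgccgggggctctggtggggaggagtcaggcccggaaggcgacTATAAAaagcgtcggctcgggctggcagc
Cd44: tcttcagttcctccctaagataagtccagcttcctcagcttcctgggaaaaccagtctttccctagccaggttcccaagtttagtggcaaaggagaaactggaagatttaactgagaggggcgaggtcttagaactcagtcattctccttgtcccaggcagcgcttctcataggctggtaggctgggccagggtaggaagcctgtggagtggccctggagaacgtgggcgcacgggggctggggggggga
Vcan: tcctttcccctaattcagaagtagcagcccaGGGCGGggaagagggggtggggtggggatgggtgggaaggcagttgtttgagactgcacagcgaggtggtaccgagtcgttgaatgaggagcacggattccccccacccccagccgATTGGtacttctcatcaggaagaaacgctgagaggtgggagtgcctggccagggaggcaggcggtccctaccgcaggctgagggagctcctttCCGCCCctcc
The Cemip stretch held TATAAA once, starting 29 bases before the start, and the GC box at 2 places, both read as CCGCCC. The Vcan stretch held the CCAAT box once, 103 bases before the start and read as ATTGG, and the GC box at 2 places. In the Cd44 stretch none of the 4 motifs was found. Among the 32851 promoter stretches of the same length in the RefSeq table, 12.4% held TATAAA, 33.8% held CCAAT, 32.7% held GGGCGG and 6.75% held TGANTCA, so the matches in Cemip and Vcan are to common motifs. Of the 8 genes, 6 had an entry in that table.

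Of the 8 members, 5 were at or above the floor on all 4 arrays (Has2, Cemip, Hyal2, Cd44 and Vcan). Has1 and Has3 were below it on every array. Hyal1 was covered by 2 features, each annotated to both Naa80 and Hyal1, so none of its values can be given to Hyal1 alone.

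**Figure D1:**
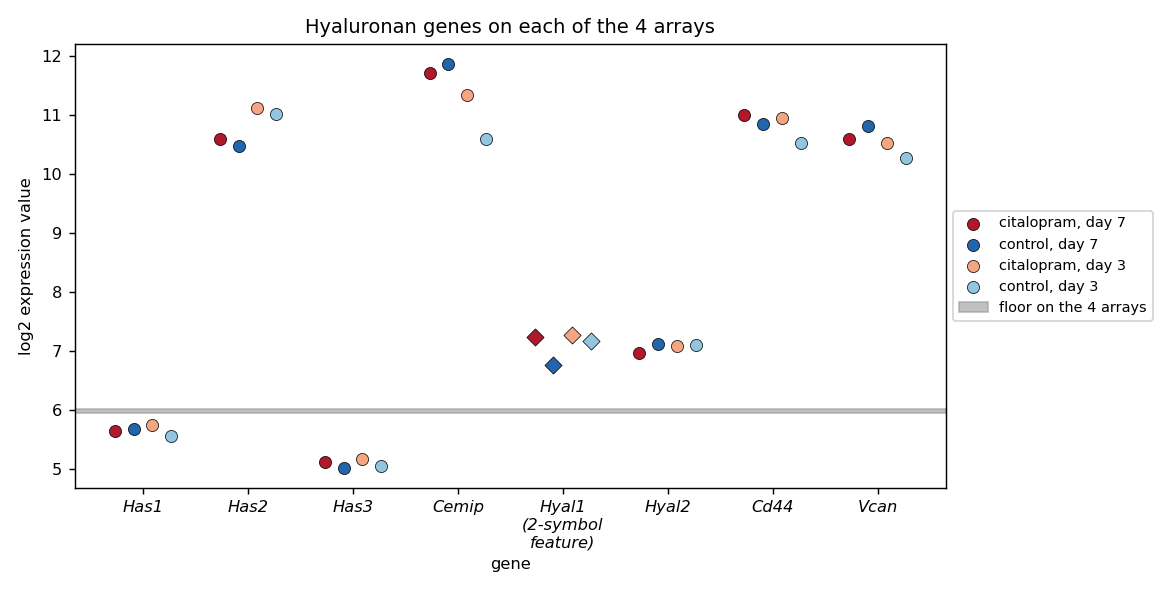
Expression values (log2, vertical axis) of the 8 hyaluronan genes on the citalopram day 7, control day 7, citalopram day 3 and control day 3 arrays, 1 point an array; the grey band is the floor, and diamonds mark the feature annotated to both Naa80 and Hyal1 whose accession is that of Hyal1. Cemip spans 10.6 to 11.9, Has2 is lower on both day 7 arrays, and Has1 and Has3 lie below the floor.

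Has2 was the synthase that these cells expressed measurably, and it was lower at day 7 than at day 3 whether or not citalopram was present. HAS2 is the synthase needed for heart formation in mouse embryos and is known for making long hyaluronan chains. At day 7 Has2 was at 10.6 with citalopram, against 10.5 in control. At day 3 it was at 11.1 with citalopram, against 11.0 in control. Both day 7 arrays were below both day 3 arrays, and at each day the treated array was slightly above its control.

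The day 7 minus day 3 difference of Has2 was -0.52 with citalopram and -0.54 in control, folds of 1.44 and 1.45. Neither reached 1.5-fold. The pairs of arrays behind these values share no array, and the differences were 0.01 apart. In a limma fit over all genes with terms for treatment and day, Has2 fell at day 7 (log2 difference -0.53 ± 0.10 SE, adjusted p = 0.0407). That fit called 348 of 12415 genes for day (2.8%), 185 of them lower (1.49%). Treatments stand in for replicates in it, with 1 residual degree of freedom for each gene, so its p sets the size of the difference against how unlike it was in the 2 pairs of arrays and against the spread borrowed from all genes, not against the spread of replicates. Without the floor, limma's adjusted p for Has2 was 0.062, and without the treatment term it was 0.0898. Citalopram minus control was 0.11 at day 7 and 0.10 at day 3 for Has2.

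Has1 and Has3 gave no measurable level. Has1 was at 5.65 with citalopram and 5.68 in control at day 7, and at 5.75 with citalopram and 5.57 in control at day 3. Has3, which in other cells makes shorter chains, was at 5.13 with citalopram and 5.03 in control at day 7, and at 5.17 with citalopram and 5.05 in control at day 3. All of these lie below the floor, so no difference is drawn from them.

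Cemip, whose protein promotes the breakdown of hyaluronan outside lysosomes, varied more over the 4 arrays than the other measurable members, with a range of 1.26. At day 7 it was at 11.7 with citalopram, against 11.9 in control. At day 3 it was at 11.3 with citalopram, against 10.6 in control. The control array at day 3 was the lowest, the treated array at day 3 came next, and both day 7 arrays were above them.

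With citalopram at day 3, Cemip was 1.67-fold higher than in control (log2 difference 0.74). This was the 22nd highest of 12196 genes measurable in that comparison, of which 98 (0.804%) were past 1.5-fold in either direction and 61 (0.5%) were higher. At day 7 the citalopram difference was -0.15, within 1.5-fold. The citalopram difference at day 7 minus that at day 3 was thus -0.89, the 28th lowest of 11952 genes. With no replicate in a group, this difference between the days was not tested.

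In control cells Cemip was 2.40-fold higher at day 7 than at day 3 (log2 difference 1.26), the 18th highest of 12201 genes. In that comparison 280 genes (2.29%) were past 1.5-fold in either direction and 142 (1.16%) were higher. In citalopram-treated cells the difference was 0.37, where 4.81% of 12187 genes were past 1.5-fold. The citalopram difference at day 3 and the day difference in control share the control array at day 3, on which Cemip was lowest, so they are not separate observations. In limma's fit over both treatments the day effect of Cemip was 0.82 ± 0.19 SE and did not pass the threshold (adjusted p = 0.0613). It did pass after other scalings, with an adjusted p of 0.0389 after centring each array on its gene median, 0.00341 after cyclic loess and 0.000181 after quantile normalization.

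Hyal2, which encodes a hyaluronidase anchored to the cell surface, differed least over the 4 arrays among the measurable members, with a range of 0.16. It was at 6.97 with citalopram and 7.12 in control at day 7, and at 7.09 with citalopram and 7.11 in control at day 3. The arrays other than citalopram at day 7 lay within 0.03 of each other. Citalopram minus control was -0.16 at day 7 and -0.02 at day 3, and the 4 arrays give no error for such small differences.

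Hyal1, the lysosomal hyaluronidase gene, shares its features with Naa80, the gene of an enzyme that acetylates actin. Naa80 is the next gene along the same chromosome, and their annotated spans overlap in RefSeq. The brighter feature, with a mean of 8.05, carries the RefSeq accession of Naa80, so the highest mean picks a feature that may report Naa80 and not Hyal1. The dimmer feature, with a mean of 7.11, carries the accession of Hyal1. The dimmer one was at 7.24 with citalopram and 6.77 in control at day 7, and at 7.27 with citalopram and 7.17 in control at day 3. The brighter one was at 8.15 with citalopram and 7.70 in control at day 7, and at 8.22 with citalopram and 8.12 in control at day 3. On both features the control array at day 7 was the low one, with the other 3 arrays close together. Citalopram minus control at day 7 was 0.47 on the dimmer and 0.45 on the brighter feature, and at day 3 it was 0.10 on each. Day 7 minus day 3 in control was -0.40 on the dimmer and -0.42 on the brighter feature, against -0.03 and -0.07 with citalopram. None of these reached 1.5-fold, and which of the 2 genes they belong to was not tested.

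Cd44, the gene of the main hyaluronan receptor, was higher with citalopram than in control at both days, by less than 1.5-fold. At day 7 it was at 11.0 with citalopram, against 10.8 in control. At day 3 it was at 10.9 with citalopram, against 10.5 in control. The control array at day 3 was the lowest by 0.32, and the other 3 arrays lay within 0.16 of each other. The citalopram difference was 0.16 at day 7 and 0.42 at day 3. Over both days limma gave 0.29 ± 0.11 SE with an adjusted p of 0.507. Cd44 was read from 1 feature, so its splice forms were not told apart.

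Vcan, the versican gene, had the same order of the 4 arrays as Cemip, over a smaller range of 0.55. At day 7 it was at 10.6 with citalopram, against 10.8 in control. At day 3 it was at 10.5 with citalopram, against 10.3 in control. The control array at day 7 was the highest and the control array at day 3 the lowest, with both treated arrays between them. Day 7 minus day 3 was 0.55 in control (1.47-fold, the 167th highest of 12201 genes) and 0.07 with citalopram. Citalopram minus control was -0.22 at day 7 and 0.26 at day 3, a difference between the days of -0.48 that was not tested. limma's day effect was 0.31 ± 0.13 SE with an adjusted p of 0.239.

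**Figure D2:**
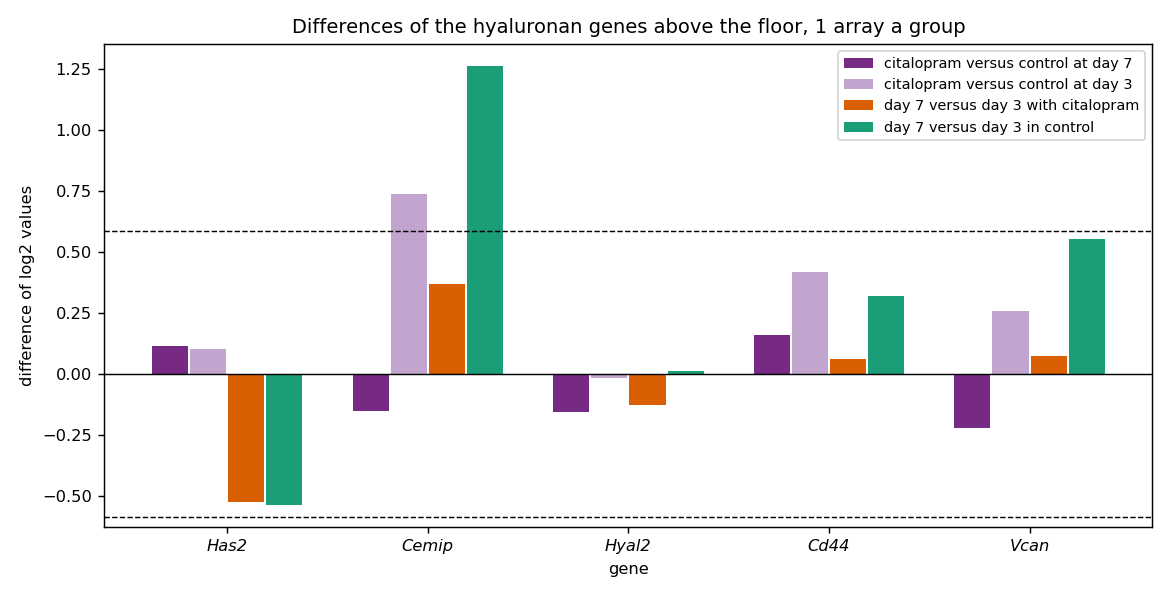
Differences of log2 values (vertical axis) for the 5 measurable hyaluronan genes in the 4 comparisons, with dashed lines at 1.5-fold and 1 array a group, so no error bars. Cemip passes 1.5-fold with citalopram at day 3 (0.74) and between the days in control (1.26), and the 2 day bars of Has2 are nearly equal.

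Counted over the 5 measurable members, citalopram was past 1.5-fold for none at day 7, where 183 of 12167 genes (1.5%) were. At day 3 it was past 1.5-fold for Cemip, where 98 of 12196 genes (0.804%) were. Between day 7 and day 3, none passed with citalopram, where 4.81% of all genes did. Cemip passed in control, where 2.29% did. The median difference over the 5 members was -0.15 with citalopram at day 7 and 0.26 at day 3, against 0.01 and 0.03 over all measurable genes. Day 7 minus day 3 had a median of 0.06 with citalopram and 0.32 in control, against -0.04 and -0.01 over all measurable genes. With citalopram, 2 of the 5 members were higher at day 7, against 51.3% of all measurable genes, and 4 at day 3, against 57.7%. Day 7 was above day 3 for 3 of the 5 with citalopram, against 44.2%, and for 4 in control, against 47.2%. The citalopram comparison at day 3 and the day comparison in control share the control array at day 3. Over both days limma called none of the 5 for citalopram and 0 of 12415 genes in all (smallest adjusted p 0.249). At an unadjusted p under 0.05, limma had 1119 genes (9.01%) for citalopram, Cd44 among them. For day it had 2496 genes (20.1%), with Has2, Cemip and Vcan among them.

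**Figure D3:**
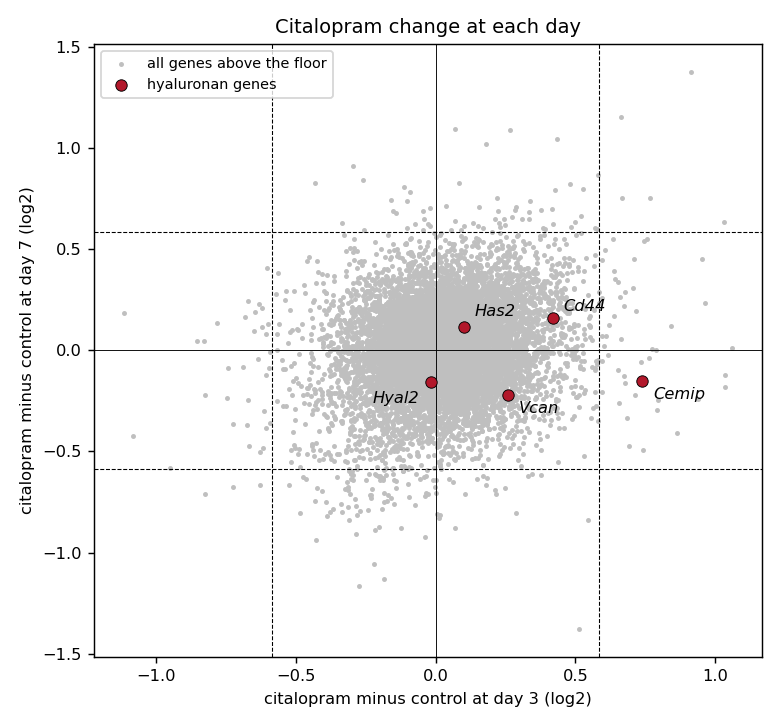
Citalopram minus control at day 3 (horizontal axis, log2) against the same difference at day 7 (vertical axis, log2) for 11952 genes measurable at both days in grey and 5 hyaluronan genes in red, with dashed lines at 1.5-fold. Cemip lies past the line at day 3 (0.74) and slightly below 0 at day 7 (-0.15); the other 4 lie inside the lines.

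The genes that supply, cut and bind hyaluronan outside the 8 members were taken as 5 lists of 67 symbols, of which 40 were measurable on at least 1 array. Of 10 symbols listed as other degrading enzymes, 8 had a feature with 1 symbol and 3 were measurable. Of these, 0 passed 1.5-fold in any of the 4 comparisons. With citalopram, 1.5% of all measurable genes passed it at day 7 and 0.804% at day 3. Between the days, 4.81% passed it with citalopram and 2.29% in control. The same shares apply to the lists below. Cemip2, which encodes a cell-surface hyaluronidase related to CEMIP, was at 10.5 with citalopram and 10.4 in control at day 7, and at 10.5 with citalopram and 10.3 in control at day 3. Hexa and Gusb, whose lysosomal enzymes remove sugars from the ends of hyaluronan fragments, differed between citalopram and control by -0.06 and -0.26 at day 7 and by 0.06 and -0.06 at day 3. At an unadjusted p under 0.05 limma had 0 of the 3 for citalopram and 0 for day. The shares of all genes were 9.01% and 20.1%. The sperm hyaluronidase gene Spam1 and the genes Hyal3 to Hyal6 were below the floor on every array.

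Of 22 other receptors and binding proteins, 8 were measurable, and 1 of them was lower with citalopram by at least 1.5-fold at day 7 (0.945% of all genes were). Another was higher by as much at day 7 than at day 3 in both treatments, where 4.81% of all genes with citalopram and 2.29% in control were past 1.5-fold in either direction. Ptx3, a pentraxin that helps to crosslink hyaluronan in the matrix around the mouse oocyte, was at 10.2 with citalopram and 9.90 in control at day 7. At day 3 it was at 9.55 with citalopram and 9.17 in control. Ptx3 rose at day 7 in limma's fit (0.70 ± 0.10 SE, adjusted p = 0.0151), with 0.67 with citalopram and 0.73 in control. Its citalopram difference was 0.31 at day 7 and 0.37 at day 3. Layn, which encodes the hyaluronan receptor layilin, differed by -0.03 at day 7 and 0.29 at day 3 between citalopram and control. At an unadjusted p under 0.05 limma had 2 of the 8 for citalopram and 4 for day. The shares of all genes were 9.01% and 20.1%. The link protein genes Hapln1, Hapln2 and Hapln3, the proteoglycan genes Acan, Bcan and Ncan, and the endothelial receptor genes Lyve1 and Stab1 were below the floor on every array. The link protein gene Hapln4 was above the floor on every array. Stab2, a receptor gene related to Stab1, reached it on 1 array only, that of citalopram at day 3.

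Hmmr encodes a hyaluronan-binding protein that also works at the mitotic spindle. It was at 9.95 with citalopram, against 10.8 in control, at day 7 and at 10.4 with citalopram, against 10.9 in control, at day 3. The treated array was below its control at each day, by 0.80 at day 7 and 0.49 at day 3, and limma's adjusted p for citalopram was 0.312. Of 9 measured mitosis genes set beside it, 7 were lower with citalopram by at least 1.5-fold at day 7 (median -0.71). Of all genes, 0.945% were. At day 3 all 9 were negative (median -0.24), where 57.7% of all measurable genes were higher with citalopram. At that day 0 of the 9 were past 1.5-fold, where 0.804% of all genes were. The mitotic kinase genes Bub1, Aurka, Aurkb, Plk1 and Cdk1 were at -0.80, -0.76, -0.71, -0.59 and -0.64 at day 7, with Cenpa at -1.06, Ccnb2 at -0.72 and the proliferation marker gene Mki67 at -0.40. At an unadjusted p under 0.05 limma had all 9 for citalopram and 2 for day. The shares of all genes were 9.01% and 20.1%. The part of dividing cells in the level of Hmmr was not tested.

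Of 16 genes that supply the UDP-sugar precursors or compete for them, 15 had a feature with 1 symbol. All 15 were measurable and 0 passed 1.5-fold in any comparison. Citalopram minus control ran from -0.22 to 0.37 at day 7 (median -0.04) and from -0.23 to 0.44 at day 3 (median 0.13). With citalopram 6 of 15 were higher at day 7, against 51.3% of all measurable genes, and 12 of 15 at day 3, against 57.7%. Ugdh, the UDP-glucose dehydrogenase gene that makes UDP-glucuronate, was at 12.1 with citalopram and 12.2 in control at day 7, and at 12.3 with citalopram and 12.0 in control at day 3. Uxs1, whose enzyme turns UDP-glucuronate into UDP-xylose, differed by -0.22 at day 7 and 0.03 at day 3. Hk1, a hexokinase gene at the head of both sugar routes, differed by 0.08 at day 7 and -0.16 at day 3. limma called 0 of the 15 for citalopram and 0 for day. At an unadjusted p under 0.05 it had 2 of the 15 for citalopram, where 9.01% of all genes were, and 2 of the 15 for day, where 20.1% were.

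Of 8 partners and sheddases of CD44, 7 had a feature with 1 symbol. All 7 were measurable and 0 passed 1.5-fold. The genes of moesin and radixin, which tie CD44 to actin, differed between citalopram and control by -0.21 (Msn) and 0.09 (Rdx) at day 7 and by 0.07 and 0.03 at day 3. Adam10, a protease gene whose product sheds CD44, differed by -0.07 at day 7 and 0.06 at day 3. At an unadjusted p under 0.05 limma had 0 of the 7 for citalopram and 2 for day. The shares of all genes were 9.01% and 20.1%.

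Of 11 partners of versican and proteases that cut it, 10 had a feature with 1 symbol and 7 were measurable. Adamts5 rose at day 7 in limma's fit (0.87 ± 0.13 SE, adjusted p = 0.0153) and was at 10.5 with citalopram and 10.5 in control at day 7. At day 3 it was at 9.91 with citalopram and 9.38 in control. As for Cemip, its control array at day 3 was the lowest. Adamts4 was at 7.37 with citalopram and 7.60 in control at day 7, and at 8.27 with citalopram and 7.95 in control at day 3, so that day 7 minus day 3 was -0.90 with citalopram and -0.36 in control. Tnc, the gene of the matrix glycoprotein tenascin C, was lower with citalopram by 0.60 at day 7, past 1.5-fold, and by 0.12 at day 3. At day 7, 0.945% of all genes were lower with citalopram by at least 1.5-fold. Fbln2, the gene of fibulin 2, differed by -0.13 at day 7 and 0.13 at day 3. Adamts1 and Fbn2 were higher with citalopram at both days, by less than 1.5-fold. Adamts1 differed by 0.46 at day 7 and 0.48 at day 3, and Fbn2 by 0.47 and 0.39. With citalopram 4 of the 7 were higher at day 7, against 51.3% of all measurable genes, and 6 at day 3, against 57.7%. limma called 0 of the 7 for citalopram. At an unadjusted p under 0.05 it had 4 of the 7 for citalopram and 4 for day. The shares of all genes were 9.01% and 20.1%.

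**Figure D4:**
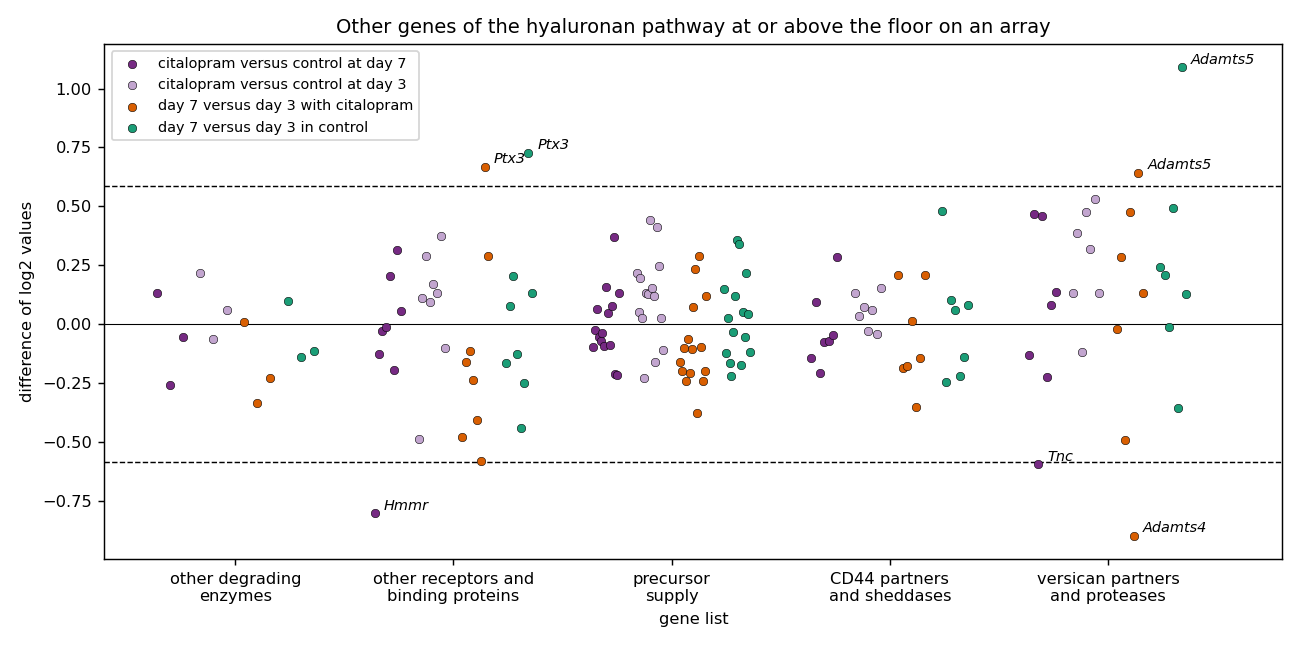
Differences of log2 values (vertical axis) for the 40 other genes of the hyaluronan pathway at or above the floor on an array, by list (horizontal axis), in the 4 comparisons, with dashed lines at 1.5-fold and genes past them named. Ptx3 (0.67 and 0.73) and Adamts5 (0.64 and 1.09) pass in both day comparisons, Hmmr (-0.80) and Tnc (-0.60) with citalopram at day 7, and Adamts4 (-0.90) between the days with citalopram.

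The genes whose 4 values were most like those of Cemip, by Euclidean distance between profiles centred on each gene's mean over 10901 genes above the floor on every array, were Col2a1 (distance 0.17), Adamts5 (0.23) and Mustn1 (0.26). Col2a1, the cartilage collagen gene, was at 10.4 with citalopram and 10.6 in control at day 7, and at 9.89 with citalopram and 9.37 in control at day 3. Mustn1 was at 11.2 with citalopram and 11.3 in control at day 7, and at 10.9 with citalopram and 10.4 in control at day 3. In these 3 genes, as in Cemip, the control array at day 3 was lowest and the treated array at day 3 next. For Has2 the closest were Thumpd3 (0.05), Tirap (0.06) and Phf10 (0.06), all lower on both day 7 arrays. With 4 arrays and this many genes, close profiles are a description only.

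Markers of the labelled cell type were present, with Col1a1, Col1a2, Sparc and Sp7 above the floor on every array and alkaline phosphatase (Alpl) near it. Because Col2a1 stood closest to Cemip, the chondrocyte markers are given beside it. Of the 4, Col2a1 and Sox9 were above the floor and Acan and Comp below it on every array. The summed log2 level of the 4 was 31.5 with citalopram and 31.5 in control at day 7. At day 3 it was 31.4 with citalopram and 30.6 in control. These sums include Acan and Comp, which lie below the floor. Sox9 was at 10.8 with citalopram and 10.5 in control at day 7, and at 11.0 with citalopram and 10.6 in control at day 3. Day 7 minus day 3 in control was 1.22 for Col2a1 and -0.09 for Sox9. For Acan and Comp it was -0.09 and -0.15, but both lie below the floor, so no difference is drawn from them. The 5 measured osteoblast-lineage markers had a summed log2 level of 52.8 with citalopram and 52.9 in control at day 7, and of 52.4 with citalopram and 51.5 in control at day 3. Col1a1, Col1a2 and Sparc were lowest on the control array at day 3, as Cemip was, but Sp7 and Alpl were not. Sp7 was lowest on the control array at day 7 (7.71, against 7.79 in control at day 3). Alpl was lowest on the citalopram array at day 7 (5.93, against 6.07 in control at day 3). The part of either marker list in the Cemip values was not tested. Of the 5 macrophage markers, Ptprc, Adgre1 and Csf1r were below the floor on every array, and Cd68 and Lyz2 were above it on every array. Lyz2, a lysozyme gene, was at 9.07 with citalopram and 8.60 in control at day 7, and at 9.50 with citalopram and 8.93 in control at day 3. Cd68 was at 7.19 with citalopram and 7.04 in control at day 7, and at 7.01 with citalopram and 7.02 in control at day 3. The summed log2 level of the 5 was 32.4 with citalopram and 32.0 in control at day 7, and 32.9 with citalopram and 32.2 in control at day 3. These sums include the macrophage markers below the floor. All 4 endothelial markers were below the floor on every array. In bulk RNA, fewer cells of a type and less RNA in each cell cannot be told apart.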

How the data were processed

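Total RNA was labelled with a whole-transcript kit and hybridised to 4 Affymetrix arrays, 1 for each group, per the labels' protocols. The deposited values are log2 expression values, 1 per feature and array. The base is inferred from their range, 3.90 to 15.5. Per the submitters' processing notes, Partek was used. How background, normalization and probe summarization were handled is not given in the sources, and a shift shared by most transcripts could be hidden or left in by them. Precision is limited by having 4 arrays.

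The platform annotation gives 1 gene symbol to 21789 of 35556 features, and the brightest feature of each of 19938 genes was used. limma 3.58.1 in R 4.3.3 (lmFit, eBayes, two-sided, Benjamini-Hochberg over 12415 genes at or above the floor on at least 1 array) fitted treatment and day together. The labels do not tie the arrays to separate experiments, so its p-values do not measure a spread of replicates. They set a difference against how unlike it was in the 2 pairs of arrays and against the spread borrowed from all genes. Either may be technical in part. Other steps used Python 3.11.15, pandas 2.3.3 and numpy 2.4.6.

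All 8 members are named. From the other lists, genes at least 1.5-fold apart in any comparison and the 3 with the highest mean are named. A few further genes are named for their place against the floor. Adamts1 and Fbn2 are named for citalopram differences of the same direction at both days. The 3 closest profiles are given for measurable members with a range of at least 1.5-fold, leaving out predicted, olfactory, microRNA and similar symbols. The members and lists were chosen with earlier results of these data known. Alternatives were other scalings, floors, folds, feature rules and limma settings.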

Additional observations from a re-analysis of the deposited data

Results flagged for a closer look

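The citalopram difference had opposite signs at day 7 and day 3 for 2 members, Cemip and Vcan, with 1 array in each group, so the difference between the days was not tested. For Cemip, the day 7 difference minus the day 3 difference was -0.89, and for Vcan it was -0.48. Of 11952 genes measurable at both days, 46.8% had opposite signs, so the sign alone does not set these genes apart. Whatever the signs, the difference between the days was past 1.5-fold for 351 of the 11952 genes (2.94%), Cemip among them.

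Opposite signs at the days were also seen for 13 other genes given with values. Cd68 and Hk1 ran the reverse way to Cemip and Vcan, negative at day 3 and positive at day 7. Some values were near 0, as for Cd68 at day 3 (-0.01) and Uxs1 at day 3 (0.025). The difference was -0.74 for Col2a1, past 1.5-fold. It was -0.57 for Mustn1, -0.54 for Adamts4, -0.32 for Layn, -0.31 for Ugdh, -0.28 for Msn, -0.28 for Col1a2, -0.26 for Fbln2, -0.24 for Uxs1, -0.13 for Adam10, -0.12 for Hexa, 0.16 for Cd68 and 0.24 for Hk1, 12 genes under 1.5-fold. None of these differences was tested.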

How the results depend on the processing

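All 84 differences recomputed under 3 scalings for the 7 members with a feature of 1 symbol stayed on the same side of 1.5-fold. Averaging features could change none of them, since these members have 1 such feature each. Hyal2 changed sign in 2 of 12 and Has3 in 1 of 12, all with values near 0. For limma's day effect, Has2 missed the threshold without the floor (adjusted p 0.062) and without the treatment term (0.0898) and ranged from 0.00469 to 0.0898 over 7 alternatives; Cemip ranged from 0.000181 to 0.164 and passed under the 3 scalings. limma called 139 genes for citalopram after quantile normalization and 40 after cyclic loess, with 0 as reported, and none of the 5 tested members was among them (lowest adjusted p 0.335, Cd44). For day, limma called 1544 after quantile normalization, 1018 after cyclic loess, 190 without the floor and 68 without the treatment term, against 348. The cause was not tested. A 2-fold threshold left 6 higher and 4 lower genes with citalopram at day 7, 5 and 2 at day 3, 53 and 46 between the days with citalopram, and 32 and 16 in control; Cemip in control was past it. A floor at the 60th percentile left 34 higher and 20 lower at day 3. No paired analysis was possible because each group has 1 array and the labels give no replicate numbers. Leaving out an array leaves the fit with both terms no residual. Signals below the floor limit Has1 and Has3.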
